A study of Mus musculus with 2 samples.

Results

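The genes described here are 37 genes of amino acid breakdown, the urea cycle and gluconeogenesis, taken as a named list of 37 among the 31053 features of each library, and all 37 were found in both. They were read in barcodes sorted into 5 gates by other genes, chiefly to set the hepatocyte gate beside the Kupffer gate. The barcodes are YFP+ cells sorted from the livers of the Rb family Triple Knock Out mouse, a model of hepatocellular carcinoma that lacks the 3 Rb family genes, Rb1, Rbl1 and Rbl2, and YFP marks cells in which Cre had acted on floxed alleles. The early lesions gave 1 library from the pooled cells of 3 mice, and the macroscopic lesions gave 1 library, with the number of mice not given in the sources used here. Both libraries share this genotype and were untreated. The labels used here give no age, strain, driver of Cre or list of the floxed alleles, and no library with intact Rb genes was analysed. Each library was made by droplet capture of RNA 3′ ends with unique molecular identifiers (UMIs), so that 1 UMI stands for 1 captured RNA molecule.

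Hepatocytes dispose of amino acids. Their nitrogen enters the urea cycle, in which ammonia is fixed to carbamoyl phosphate in the mitochondrion and released as urea in the cytosol. Their carbon skeletons feed gluconeogenesis, which ends with the release of free glucose from glucose 6-phosphate. Most of these enzymes are typical of hepatocytes, and hepatocytes around the portal vein and around the central vein hold different sets of them. Kupffer cells are the resident macrophages of the liver and line its sinusoids, where they take up particles and dying cells. Arginase and glutamine synthetase are also known from macrophages.

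The early library held 3221 barcodes and 12637053 UMIs, and the macroscopic library 256 barcodes and 7271368 UMIs. No barcode sequence was shared between the libraries. With at least 1000 UMIs required, 2620 and 241 barcodes were kept, with medians of 2946 and 14223 UMIs. In the early library 56 barcodes met only the hepatocyte gate (Alb, the gene of serum albumin, at 0.5% of UMIs or more). The Kupffer gate (at least 3 UMIs of Clec4f, Cd5l and Marco, with Alb below 0.5%) held 1830. The gate of other macrophages (at least 3 UMIs of Gpnmb and Mmp12) held 197, the duct gate (at least 2 UMIs of Krt19 and Krt7) 89 and the T cell gate (at least 2 UMIs of Cd3e and Trbc2) 72. The macroscopic library held 101, 1, 8, 0 and 20 barcodes in the same order, so the Kupffer gate can be described in the early library alone. The sexes of the mice also differed, with Xist, of the inactive X chromosome, at 10348 UMIs in early and 0 in macroscopic barcodes, and Ddx3y, of the Y chromosome, at 0 and 277.

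Summed by list, markers that the gates do not use were highest in the gate of their name, and several were also present in another gate. Single markers could differ. The Kupffer marker C1qb was at 3585 CPM in the other macrophage gate and 3431.5 in the Kupffer gate. The other macrophage markers Ccr2 and Cd9, at 75.5 and 802 CPM in their own gate, reached 93.0 CPM in the T cell gate and 891 CPM in the duct gate, respectively. The 15 genes of secreted liver proteins summed to 50386 CPM (UMIs of the genes over all UMIs of the gate, in parts per 1e6) in the early hepatocyte gate, 226 in the Kupffer gate, 56.8 in the other macrophage gate, 5754 in the duct gate and 46.5 in the T cell gate. The 10 further Kupffer markers (among them Vsig4, Timd4 and C1qa) summed to 21066 CPM in the Kupffer gate and 168 CPM in the hepatocyte gate. They stood at 8895 CPM in the other macrophage gate, where Vsig4 was at 16.8 CPM and C1qa at 2404 CPM. The 7 other macrophage markers were at 13838 CPM in their own gate and 3037 CPM in the Kupffer gate. T cell markers were at 5197 CPM in the T cell gate, 1.32 CPM in the Kupffer gate and at 0 in the hepatocyte gate. The 7 duct markers beyond the gate genes were at 8479 CPM in the duct gate and 1591 CPM in the hepatocyte gate. The duct gate also carried liver mRNA, since Alb stood at 2268 CPM, with UMIs in all but 3 of its 89 barcodes, and Ttr at 2462 CPM beside Apoa1 at 7.51 CPM. The T cell gate, low in these genes, is therefore the plainer background. Alb itself was at 22098 CPM in the hepatocyte gate, 244 in the Kupffer gate, 64.3 in the other macrophage gate and 31.0 in the T cell gate.

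**Figure D1:**
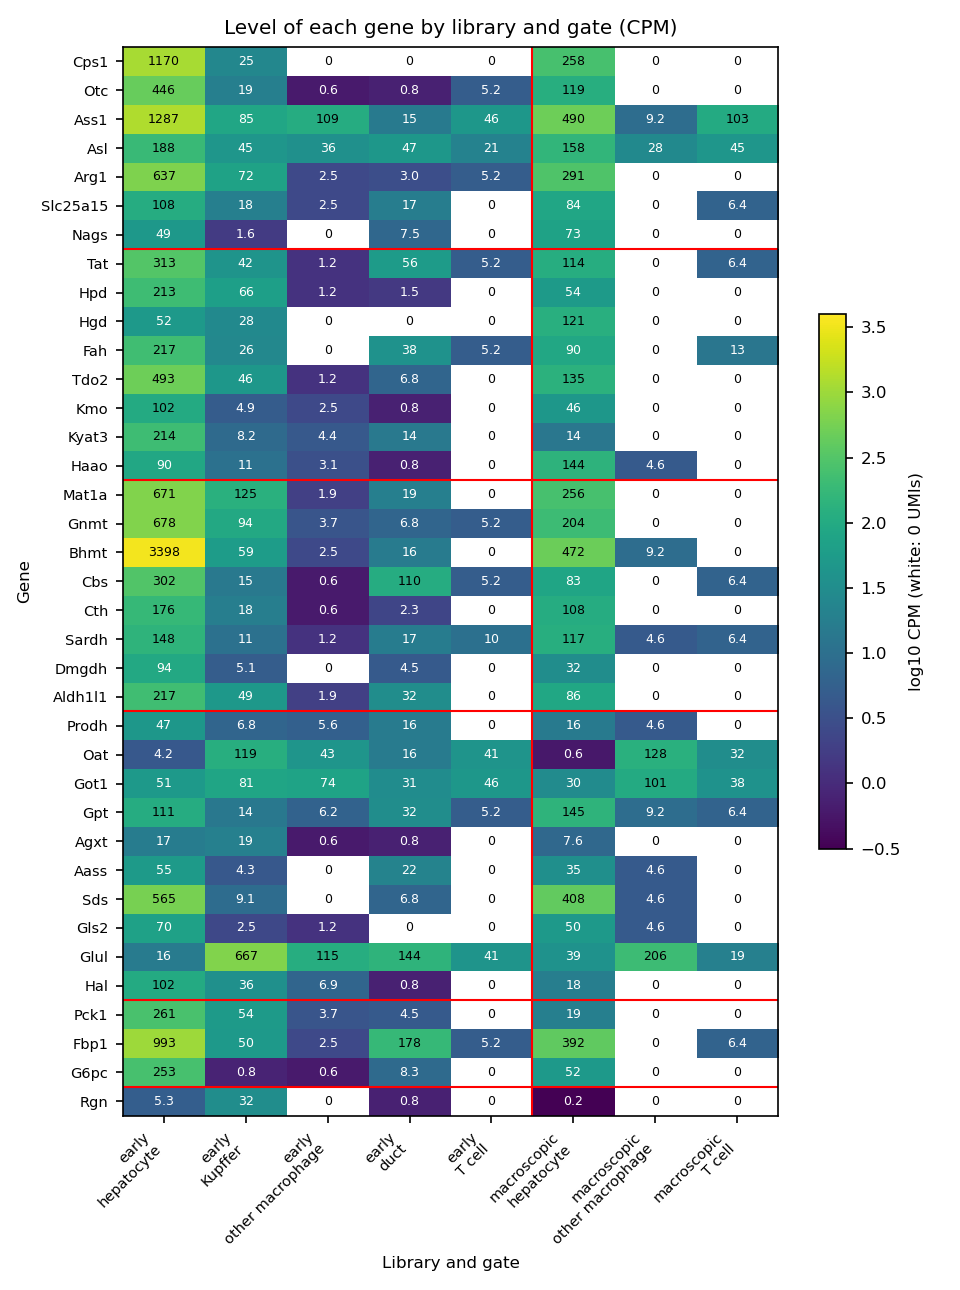
Level of each of the 37 genes in CPM (numbers, and colour on a log10 scale) by library and gate, with red lines between the groups of genes and between the libraries. White cells had 0 UMIs. Most genes are highest in the hepatocyte gates, intermediate in the early Kupffer gate and near 0 in the other macrophage and T cell gates, while Glul, Oat, Got1 and Rgn stand apart.

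The first comparison asked how much of each gene the hepatocyte and Kupffer gates of the early lesions held. Of the 37 genes, 31 were at least 2-fold higher in CPM in the hepatocyte gate, against 26.4% of all 10860 measured features. Only Oat, Rgn and Glul were at least 2-fold lower, against 25.2% of features. Got1, Agxt and Hgd differed by less than 2-fold, of which Hgd passed with a minimum of 2000 UMIs per barcode or with stricter gates. The median log2 ratio of the 37 genes was 3.09, beside 0.05 over all measured features. Another scaling, by the median of ratios, moved that background to -0.26 and the share of calls that were higher from 51.1% to 40.4%. With it 31 members were still called, against 21.3% of features. Each stage has 1 library, so no difference here has a replicate check and no p-value is given. The intervals in parentheses are exact 95% intervals and cover counting error only. Counts of 3′ ends do not scale with the length of a transcript.

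The urea cycle genes were all higher in the hepatocyte gate, by a median log2 ratio of 3.92 over 7 genes. Cps1, which makes carbamoyl phosphate, stood at 1170.4 CPM (1103 to 1241) in the hepatocyte gate and 24.9 CPM (21.1 to 29.2) in the Kupffer gate. It had 0 UMIs in the other macrophage, duct and T cell gates. The hepatocyte level was 47.0-fold the Kupffer level (39.6 to 56.1). Otc, the next enzyme of the cycle, was at 446 CPM in the hepatocyte gate, 18.8 in the Kupffer gate and 0.624 in the other macrophage gate, where a single UMI was seen. Nags, which makes the activator of the Cps1 enzyme, was at 48.5 CPM in the hepatocyte gate and 1.65 CPM (10 UMIs) in the Kupffer gate. Slc25a15, the mitochondrial ornithine carrier, was at 108 CPM against 18.3 CPM.

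The cytosolic steps of the urea cycle reached beyond the hepatocyte gate. Ass1, argininosuccinate synthase, stood at 1287 CPM in the hepatocyte gate, 84.9 in the Kupffer gate, 109 in the other macrophage gate and 46.5 in the T cell gate. The Kupffer level was 0.777 times the other macrophage level (0.654 to 0.928). Asl, argininosuccinate lyase, was at 188 CPM in the hepatocyte gate and between 20.7 and 46.6 CPM in the other gates. Arg1, arginase, which releases urea, behaved differently, at 637 CPM in the hepatocyte gate, 71.9 in the Kupffer gate (436 UMIs) and 2.50 in the other macrophage gate (4 UMIs). That last value depends on leaving out barcodes that also meet the Kupffer gate. With them kept in each gate, Arg1 differed by less than 2-fold between the Kupffer and other macrophage gates.

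Of the 8 genes of tyrosine and tryptophan breakdown 7 were at least 2-fold higher in the hepatocyte gate, with a median log2 ratio of 3.07 and a wide spread. Hpd, which makes homogentisate from the product of tyrosine transamination, was at 213 CPM (185 to 244) in the hepatocyte gate and 65.6 CPM (59.3 to 72.4) in the Kupffer gate. It had 2 UMIs in the other macrophage gate and 0 in the T cell gate. Hgd, which opens the ring of homogentisate, was at 51.7 CPM (38.2 to 68.3) in the hepatocyte gate and 28.2 CPM (24.1 to 32.7) in the Kupffer gate, with 0 UMIs in each of the 3 other gates. Its ratio of 1.83 (1.31 to 2.53) was under 2-fold. Tat, the tyrosine aminotransferase at the head of the pathway, stood at 313 and 41.7 CPM, and Fah, its last enzyme, at 217 and 26.2 CPM. Tdo2, which opens the ring of tryptophan, was at 493 and 46.5 CPM. Kmo, Kyat3 and Haao, later enzymes of the kynurenine branch, were lower in the Kupffer gate at 4.94, 8.24 and 10.5 CPM, beside 102, 214 and 89.6 CPM in the hepatocyte gate.

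Methionine and one-carbon genes held the highest level of the list in the hepatocyte gate and some of the highest in the Kupffer gate. Bhmt, which remethylates homocysteine with betaine, stood at 3398 CPM (3282 to 3518) in the hepatocyte gate and 59.3 CPM (53.4 to 65.8) in the Kupffer gate, a 57.3-fold difference (51.3 to 64.0). Mat1a (ENSMUSG00000037798, chr14:41105035-41124412, plus strand), which makes S-adenosylmethionine, stood at 671 CPM (620 to 725) in the hepatocyte gate and 125 CPM (116 to 134) in the Kupffer gate. The other macrophage gate held 3 UMIs of it, or 1.87 CPM, and the T cell gate 0. Gnmt, the glycine methyltransferase that consumes S-adenosylmethionine, was at 678 CPM in the hepatocyte gate, 93.6 in the Kupffer gate, 3.74 in the other macrophage gate and 5.17 in the T cell gate, the last from 1 UMI. Aldh1l1, a folate enzyme, was at 217 and 48.8 CPM in the hepatocyte and Kupffer gates. Cbs and Cth, which move sulfur from homocysteine to cysteine, were at 302 and 176 CPM in the hepatocyte gate and 14.5 and 17.97 CPM in the Kupffer gate. Sardh and Dmgdh, which demethylate sarcosine and dimethylglycine, were at 148 and 93.8 CPM against 10.5 and 5.11 CPM.

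Among the other amino acid genes, 2 were far higher in the Kupffer gate. Glul (ENSMUSG00000026473, chr1:153899944-153909723, plus strand), glutamine synthetase, stood at 667 CPM (646 to 688) there, 15.8 CPM (8.85 to 26.1) in the hepatocyte gate, 115 CPM (98.8 to 133) in the other macrophage gate and 41.3 CPM in the T cell gate. The Kupffer level was 42.2-fold the hepatocyte level (25.5 to 75.4) and 5.81-fold the other macrophage level (5.01 to 6.77). Oat (ENSMUSG00000030934, chr7:132557478-132576398, minus strand), ornithine aminotransferase, stood at 119 CPM (111 to 128) in the Kupffer gate, 4.22 CPM (4 UMIs) in the hepatocyte gate, 43.05 CPM in the other macrophage gate and 41.3 CPM in the T cell gate. Positions are those of GENCODE M21 on GRCm38. Oat overlaps Fgfr2 and Glul overlaps Mir8114 on the same strand in that annotation, as Aldh1l1, Cth and Hpd overlap predicted genes, so reads could be shared there. Got1, the cytosolic aspartate aminotransferase, was near the same level in the Kupffer and other macrophage gates at 80.8 and 74.2 CPM, a ratio of 1.09 (0.889 to 1.34), and lower in the hepatocyte gate at 50.6 CPM.

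The remaining amino acid genes followed the hepatocyte gate, apart from Agxt. Sds, which makes pyruvate from serine, was at 565 CPM in the hepatocyte gate and 9.06 CPM in the Kupffer gate, the widest gap among the amino acid genes at 62.3-fold (47.2 to 83.9). Hal, which starts histidine breakdown, was at 102 and 36.4 CPM, and Gpt, alanine aminotransferase, at 111 and 13.7 CPM. Aass (lysine breakdown), Gls2 (liver glutaminase) and Prodh (proline oxidase) were at 54.8, 69.6 and 47.4 CPM in the hepatocyte gate and 4.29, 2.47 and 6.76 CPM in the Kupffer gate. Agxt, which detoxifies glyoxylate, was at 16.9 CPM (9.64 to 27.4) in the hepatocyte gate and 19.4 CPM (16.1 to 23.3) in the Kupffer gate, where the intervals overlapped, and had 1 UMI in each of the other macrophage and duct gates.

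The 3 gluconeogenic genes parted in the Kupffer gate. Pck1 (ENSMUSG00000027513), which commits oxaloacetate to glucose synthesis, had 248 UMIs or 261 CPM (230 to 296) in the hepatocyte gate and 328 UMIs or 54.1 CPM (48.4 to 60.2) in the Kupffer gate. It stood at 3.74 CPM in the other macrophage gate and had 0 UMIs in the T cell gate. Fbp1, fructose bisphosphatase, was at 993 CPM in the hepatocyte gate, 49.9 in the Kupffer gate, 2.50 in the other macrophage gate and 178 in the duct gate. G6pc (ENSMUSG00000078650), the glucose 6-phosphatase of the endoplasmic reticulum, had nearly the hepatocyte level of Pck1, with 240 UMIs or 253 CPM (222 to 287), yet 5 UMIs or 0.824 CPM (0.268 to 1.92) in the Kupffer gate. The hepatocyte level of G6pc was thus 307-fold the Kupffer level (130 to 954), beside 4.84-fold for Pck1 (4.09 to 5.72) and 19.9-fold for Fbp1 (17.5 to 22.7).

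Pck1 and G6pc had close levels in the hepatocyte gate and levels far apart in the Kupffer gate, so the DNA upstream of both is shown. The 250 bases before each RefSeq start (build GRCm38.p6) lie at chr2:173152823-173153072 for Pck1 and chr11:101367466-101367715 for G6pc, both on the plus strand. GENCODE starts both genes further upstream, at 173153048 for Pck1 and 101367561 for G6pc, inside these windows. Capitals mark matches to TTACGTCA or TGACGTCA, forms of the cyclic AMP response element, and to TATAAA, searched on both strands.
Pck1: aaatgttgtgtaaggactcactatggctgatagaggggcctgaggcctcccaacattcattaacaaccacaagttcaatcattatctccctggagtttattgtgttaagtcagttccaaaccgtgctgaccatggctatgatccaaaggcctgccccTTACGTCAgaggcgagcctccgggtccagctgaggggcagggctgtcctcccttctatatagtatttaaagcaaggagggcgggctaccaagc
G6pc: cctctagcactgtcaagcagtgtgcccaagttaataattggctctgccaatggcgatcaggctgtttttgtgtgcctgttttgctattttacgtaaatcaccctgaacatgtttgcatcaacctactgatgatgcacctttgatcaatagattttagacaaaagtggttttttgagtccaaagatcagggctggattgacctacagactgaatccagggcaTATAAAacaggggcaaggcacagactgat
The window of Pck1 held 1 match, TTACGTCA, and that of G6pc held 1, TATAAA. Only exact matches were counted. Similar strings, ttacgtaa in the G6pc window and tatttaaa in the Pck1 window, were not, so these matches do not set the genes apart. Of 32851 promoter windows of this length, 1.98% held TTACGTCA or TGACGTCA and 12.4% held TATAAA. Of the 37 genes 28 were matched in the promoter table, and Pck1 was the 1 among them with either form of the response element. A match is a description of the letters and no sign of binding.

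Rgn (ENSMUSG00000023070, chrX:20549787-20562089, plus strand), regucalcin, a calcium-binding lactonase, went against most of the list. It had 197 UMIs or 32.5 CPM (28.1 to 37.3) in the Kupffer gate and 5 UMIs or 5.27 CPM (1.71 to 12.3) in the hepatocyte gate. The Kupffer level was 6.16-fold the hepatocyte level (2.59 to 19.2). The other macrophage and T cell gates had 0 UMIs of Rgn, and the duct gate had 1.

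The second comparison set each gene against Alb, to see whether the genes stood in the same ratio to Alb in both gates. Per 100 Alb UMIs, 33 of the 37 genes were at least 2-fold higher in the Kupffer gate than in the hepatocyte gate. That count carries little by itself, because 96.1% of all features passed the same fold in a gate that is low in Alb by its own rule. Only G6pc was at least 2-fold lower, against 1.21% of features. It stood at 0.337 UMIs per 100 Alb UMIs in the Kupffer gate and 1.15 in the hepatocyte gate, a ratio of 0.294 (0.0946 to 0.698). That call rests on Alb as the reference. With the 15 secreted liver protein genes in its place, G6pc differed by less than 2-fold. The other 36 members were then at least 2-fold higher, against 98.0% of features. A narrower background is the set of 1081 features at least 10-fold higher in the hepatocyte gate than in the other macrophage gate. Of these 62.6% passed the fold. The set also takes in genes high in the Kupffer gate, such as C4b (3324 Kupffer and 404 hepatocyte UMIs) and Paqr9 (1162 and 21). It was chosen by hepatocyte values that the ratio also uses, so it gives a description only. Of the members 30 belong to that set and 26 of them passed, with a median log2 ratio of 2.96, beside 1.86 for the 1051 features of the set that are no member.

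The change in ratio to Alb differed widely between genes. Sds and Bhmt were nearest to it, at 1.45-fold (1.07 to 1.93) and 1.58-fold (1.39 to 1.78) more UMIs per 100 Alb UMIs in the Kupffer gate, followed by Cps1 at 1.92-fold (1.60 to 2.3). Mat1a had 51.0 UMIs per 100 Alb UMIs in the Kupffer gate and 3.03 in the hepatocyte gate, a ratio of 16.8 (14.9 to 18.9). For Pck1 the ratio was 18.7 (15.7 to 22.3), for Hpd 27.8 (23.2 to 33.4) and for Hgd 49.3 (35.5 to 69.5). The intervals of Bhmt and Pck1 therefore lay far apart, although both genes are higher in the hepatocyte gate. Rgn, with 13.3 and 0.0239 UMIs per 100 Alb UMIs, reached 557-fold (234 to 1735). The 15 secreted liver protein genes went the opposite way, with 11 of them at least 2-fold lower and none higher, and a median log2 ratio of -1.63. Hepatocytes without YFP were not sorted, so their ratios to Alb were not measured here.

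**Figure D2:**
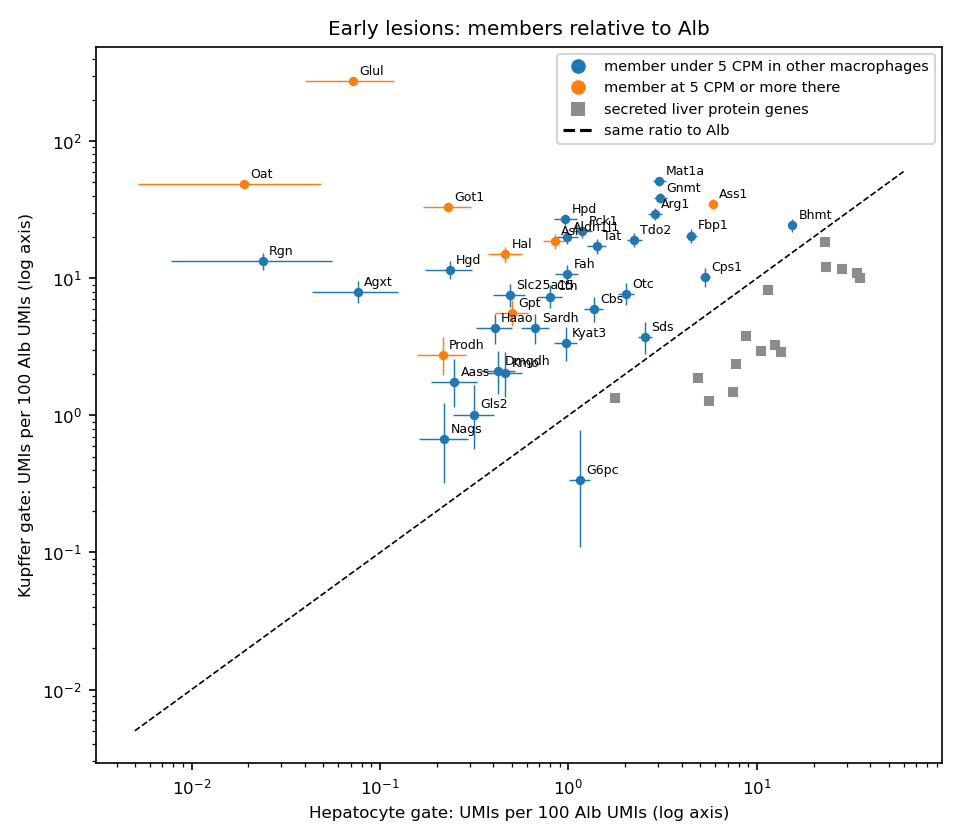
UMIs per 100 Alb UMIs in the early hepatocyte gate (horizontal, log axis) and Kupffer gate (vertical, log axis), 1 circle per gene with 95% counting intervals. The dashed line marks the same ratio to Alb in both gates. All members except G6pc lie above it, with Sds and Bhmt nearest, while grey squares, the 15 secreted liver protein genes, lie below it.

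The third comparison set the Kupffer gate against the T cell and duct gates of the same library. Per 100 Alb UMIs, 33 of 35 measured members were at least 2-fold higher in the Kupffer gate than in the T cell and duct gates together, against 82.4% of features. None was lower, against 9.54% of features, and Cbs and Aass, both present in the duct gate, differed by less than 2-fold. The duct gate held 3019 Alb UMIs and the T cell gate 6, so this count is a contrast with duct barcodes. The T cell gate has a median depth of 2566.5 UMIs per barcode, close to the 2463 of the Kupffer gate. In all, however, the T cell gate held 193575 UMIs and the Kupffer gate 6067326, so scarce genes can be missed in the former. Of the 37 genes 23 had 0 UMIs in the T cell gate and none had 0 in the Kupffer gate. That count was not set against all features and cannot tell absence from the smaller total. Mat1a had a UMI in 24.2% of Kupffer barcodes (22.2 to 26.2) and in 0 of 72 T cell barcodes, which allows a share of up to 4.17%. Gnmt had one in 21.5% (19.7 to 23.5) and in 1.39% (0.0352 to 7.50) of T cell barcodes. For Pck1 the shares were 13.0% (11.5 to 14.6) and 0, and for Rgn 8.91% (7.64 to 10.3) and 0. Glul was found in 77.7% of Kupffer barcodes (75.7 to 79.6) and 11.1% of T cell barcodes (4.92 to 20.7).

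Other macrophages of the same library also held little of most of these RNAs. In CPM, 28 of 34 measured members were at least 2-fold higher in the Kupffer gate than in the other macrophage gate, against 23.9% of features, and none was at least 2-fold lower, against 6.95%. The median log2 ratio was 3.77, beside 0.36 over all features. With median-of-ratios scaling 26 were higher, against 17.2% of features, and the share of all calls that were higher went from 77.5% to 62.9%. The highest ratio was that of Mat1a, at 66.6 (22.7 to 324), and Hpd followed at 52.6 (14.5 to 436). Of Rgn and Hgd, with 0 UMIs in the other macrophage gate, the Kupffer level was at least 17.3-fold and 15.1-fold higher, taking 3 counts over the gate as the floor. Ass1, Asl, Prodh, Got1, Kmo and Kyat3 differed by less than 2-fold between the gates, and Nags, G6pc and Gls2 had too few UMIs to compare. With the barcodes that meet both gates kept in each, Arg1 went from 4 to 163 UMIs in the other macrophage gate and its ratio from 28.8 to 1.28, and the ratio of Mat1a from 66.6 to 19.3. The median depth of the other macrophage gate was 7967 UMIs per barcode, above that of the Kupffer gate.

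Against Alb the contrast with other macrophages was narrower. Per 100 Alb UMIs, 19 of 34 members were at least 2-fold higher in the Kupffer gate, against 3.7% of features. Ass1, Asl, Prodh, Got1 and Kyat3 were at least 2-fold lower, against 73.6% of features. The median log2 ratio was 1.84, beside -1.57 over all features. Thinning each barcode to 1000 UMIs leaves members at 0 UMIs in the other macrophage gate to be read at the floor of 3. After it 3 of 28 measured members passed, against 1.94% of features, and 7 were lower, against 71.5%. With the barcodes that also meet the Kupffer gate kept, 15 of 34 passed, against 2.36% of features. Arg1 was then 0.401 times the other macrophage value in place of 7.57 times.

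To follow the members in single barcodes, the 29 under 5 CPM in the other macrophage gate were summed, so their low level in that gate is given by the choice. The sum includes Rgn, Agxt and Hgd, which were not at least 2-fold higher in the hepatocyte than the Kupffer gate. Ass1, Asl, Prodh, Got1, Gpt, Oat, Glul and Hal are outside this sum. Nearest to the limit were Kyat3 inside, at 4.37 CPM, and Prodh outside, at 5.62 CPM. The 29 genes summed to 12007 CPM in the hepatocyte gate, 914 CPM in the Kupffer gate, 575 in the duct gate, 46.5 in the T cell gate and 40.6 in the other macrophage gate. Per barcode this was 3.03 UMIs in the Kupffer gate and 0.125 in the T cell gate. Per 100 Alb UMIs it was 374 and 150, a ratio of 2.49 (0.729 to 7.86) that counting error does not tell from 1.

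The UMIs of the 29 genes were unevenly spread over Kupffer barcodes. With every barcode thinned to 1000 UMIs, 56.6% of the 1830 Kupffer barcodes had none and 13.6% (12.1 to 15.3) had 3 or more, with up to 28 in 1 barcode. None of 197 other macrophage barcodes and none of 72 T cell barcodes had 3 or more. Taking 3 barcodes as the limit of a count of 0, this allows shares of up to 1.52% and 4.17%. The genes were chosen as low in the other macrophage gate, so its count of 0 is largely given by that choice. Left out of that gate for overlap were 99 barcodes, of which 96 met the Kupffer gate. In the hepatocyte gate 87.5% (75.9 to 94.8) had 3 or more. The variance over the Kupffer barcodes was 4.01 times the mean for the 29 genes, beside 1.28 for Alb, 1.32 for the secreted liver protein list and 1.18 for Glul. The gate itself holds Alb below 0.5% of UMIs, which limits its spread. These have lower means than the 1.11 UMIs of the sum, but Cd5l, with a mean of 7.75, was at 1.98. The top 10% of barcodes held 54.5% of the UMIs of the 29 genes. That share was no higher than the 56.1% of Alb and the 58.2% of the secreted liver protein list. For Glul it was 36.9% and for Cd5l 19.6%.

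**Figure D3:**
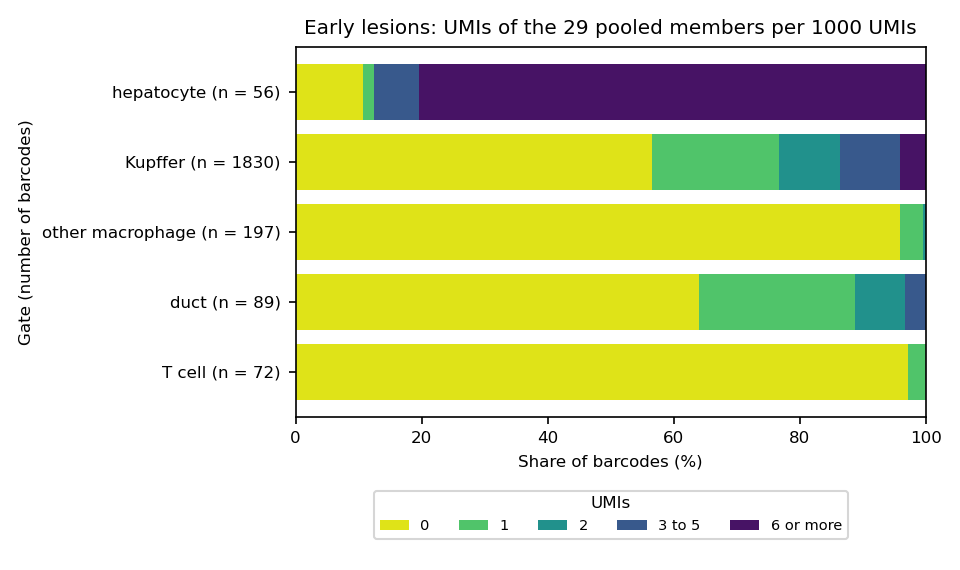
Share of early barcodes in each gate (horizontal axis, in percent) by the number of UMIs of the 29 summed genes after thinning to 1000 UMIs per barcode. The Kupffer gate spans the range from 0 (56.6%) to 6 or more, whereas other macrophage and T cell barcodes have at most 2. The genes were chosen as low in the other macrophage gate.

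Within the Kupffer gate the genes came in the same barcodes. For each gene the level in barcodes with 3 or more UMIs of the other summed members was compared with the level in barcodes with 0 of them, as a description over barcodes of 1 library that share its depth. All 27 of the 29 genes that had a value were at least 2-fold higher, with a median ratio of 10.4 and a range of 2.83 to 18.9, and for 22 the counting interval lay above 1. Of the 19 with at least 20 UMIs in these barcodes all 19 passed, against 4.17% of 6614 features. G6pc and Gls2 had no UMI in the barcodes at 0 and so no ratio. Aldh1l1 led at 18.9 (10.8 to 34.9). Kyat3, at 16.7 (4.52 to 92.5), rests on 12 and 3 UMIs, under the minimum of 20. Fbp1 was at 15.3, Hpd at 15.0 and Tdo2 at 11.2 (6.92 to 18.6), so genes of folate, glucose, tyrosine and tryptophan metabolism came together. Rgn, low in the hepatocyte gate, was 10.0-fold higher (5.05 to 21.03).

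The 8 genes outside the sum were mixed. Hal and Ass1 were 9.50-fold (4.93 to 19.3) and 8.89-fold (6.13 to 13.1) higher in the same barcodes, and Asl 4.51-fold (2.78 to 7.36). Got1 and Oat were 2.65-fold (1.77 to 3.92) and 2.20-fold (1.55 to 3.10) higher. Glul, at 1.13-fold (0.964 to 1.33), did not go with the sum beyond counting error, and Prodh, at 1.04-fold, had too few UMIs to tell. Alb was 2.79-fold higher (2.24 to 3.47), just under the lowest of the 27 genes, Haao at 2.83 (0.829 to 8.90), although the gate limits Alb. Of the 15 secreted liver protein genes 10 were at least 2-fold higher, with a median ratio of 2.77. None of the 13 Kupffer genes was 2-fold higher, and their ratios ran from 0.662 for C1qb to 1.04 for Cd5l. Among the 10 markers that the gate does not use, C1qb at 0.662 (0.601 to 0.728) and Csf1r at 0.761 (0.665 to 0.869) were lower in barcodes rich in the 29 genes, while Vsig4 was at 1.04 (0.958 to 1.12).

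**Figure D4:**
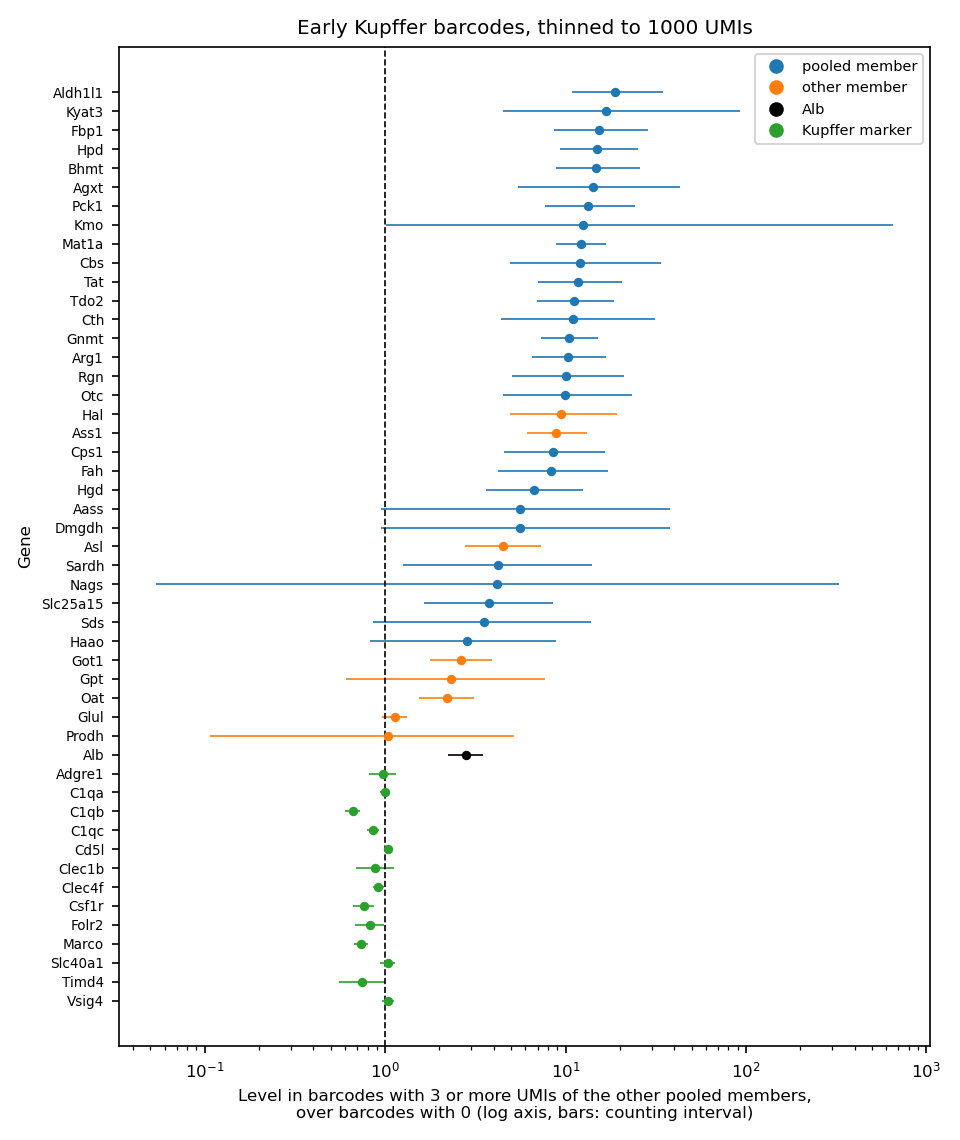
For each gene, its level in early Kupffer barcodes with 3 or more UMIs of the other summed members over its level in barcodes with 0 of them (horizontal, log axis), with 95% counting intervals, after thinning to 1000 UMIs. Blue members of the sum lie between 2.83 and 18.9, Alb in black at 2.79, Glul at 1.13 and the green Kupffer markers between 0.662 and 1.04. G6pc and Gls2, which have no ratio, are left out.

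Depth and Alb moved with the sum, and their part in the result was not tested. Barcodes with 3 or more UMIs of the 29 genes had a median of 1939 UMIs before thinning, against 2731 for those with 0. Across barcodes of 1000 to under 2000, 2000 to under 5000 and 5000 or more UMIs, the 29 genes stood at 1402, 1015 and 613 CPM, and Alb at 361, 276 and 164 CPM. In UMIs per barcode the order was the opposite, at 2.05, 3.21 and 4.73. Barcodes with 0, 1 and at least 2 Alb UMIs in the thinned counts had 886, 1481 and 2894 CPM of the 29 genes. Of the barcodes with 0 Alb UMIs 38.3% still had a UMI of these genes. The share of mitochondrial UMIs was close in both strata, with medians of 9.26% and 8.80%.

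The last comparison set the hepatocyte gate of the macroscopic library beside that of the early library. At least 2-fold lower in macroscopic barcodes were 22 of 35 measured members, against 15.8% of features, and Hgd and Glul were at least 2-fold higher, against 11.2%. The median log2 ratio was -1.33, beside -0.16 over all features. With median-of-ratios scaling 19 members were lower and 2 higher, against 9.29% and 16.3% of features. That scaling moved the median over all features to 0.10 and the share of calls that were higher from 41.4% to 63.7%. Stage, library, sex and animals cannot be told apart here. Of the 101 macroscopic barcodes 57 had Malat1, a nuclear RNA, below 0.05% of UMIs, against 4 of 56 early ones. Without such macroscopic barcodes 21 of 35 were lower, against 11.7% of features. With every barcode thinned to 1000 UMIs, 10 of the 13 that could still be measured were lower, against 13.5% of 1115 features. Alb itself was at 31553 CPM in the macroscopic and 22098 CPM in the early gate. Duct markers moved too, from 1591 CPM in the early to 3044 CPM in the macroscopic gate (Krt18 from 596 to 1450.1 CPM), with Krt19 and Krt7 at 0 in both, and Kupffer markers from 168 to 39.5 CPM. Their part in the result was not tested.

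All 3 gluconeogenic genes were lower. Pck1 stood at 261 CPM (230 to 296) in the early and 18.8 CPM (15.2 to 22.9) in the macroscopic gate, 13.9-fold lower (11.0 to 17.8). G6pc stood at 253 and 52.5 CPM, 4.82-fold lower (4.04 to 5.76), and Fbp1 at 993 and 392 CPM, 2.53-fold lower (2.34 to 2.74). Pck1 was about as low in macroscopic barcodes with Malat1 at 19.5 CPM as in those without at 16.7 CPM.

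Most methionine genes were lower too, at 6 of 8. Bhmt went from 3398 CPM in the early to 472 CPM in the macroscopic gate, 7.20-fold lower (6.83 to 7.59). Mat1a and Gnmt were at 671 and 678 CPM in the early gate and 256 and 204 CPM in the macroscopic gate, while Cth and Sardh differed by less than 2-fold. In the urea cycle 4 of 7 genes were lower, namely Cps1 (1170.4 and 258 CPM), Otc (446 and 119 CPM), Ass1 (1287 and 490 CPM) and Arg1 (637 and 291 CPM), though Arg1 was under 2-fold with median-of-ratios scaling or with overlapping barcodes kept. Asl, Slc25a15 and Nags differed by less than 2-fold, with Nags higher in the macroscopic gate at 72.6 against 48.5 CPM. Cps1 differed with Malat1, at 331 CPM in macroscopic barcodes with it and 42.6 CPM in those without.

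Of the aromatic amino acid genes 6 of 8 were lower, by most for Kyat3, which makes kynurenic acid, at 214 and 13.6 CPM or 15.8-fold (11.98 to 21.02). Kmo was 2.22-fold lower, but under 2-fold with median-of-ratios scaling, with overlapping barcodes kept or without the barcodes low in Malat1. Hgd went the opposite way, from 51.7 CPM (38.2 to 68.3) to 121 CPM (112 to 131), 2.35-fold higher (1.75 to 3.21), while its neighbours in tyrosine breakdown, Hpd and Fah, were lower at 53.8 and 89.7 CPM. Haao was 1.61-fold higher. Of the other amino acid genes Hal, Prodh and Agxt were at least 2-fold lower, Hal by 5.68-fold (4.23 to 7.63), while Agxt was under 2-fold or could not be measured under 4 of the 10 alternatives and Prodh went the opposite way after thinning left it with 5 UMIs. Glul was 2.46-fold higher (1.46 to 4.48), at 38.9 against 15.8 CPM, the latter from 15 UMIs. Sds, Gpt, Got1, Aass and Gls2 differed by less than 2-fold. Oat and Rgn were too scarce to compare, with 3 and 1 UMIs in the macroscopic and 4 and 5 in the early gate.

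The few other macroscopic barcodes gave little. The 4 barcodes that meet the Kupffer rule there, 3 of which also meet that of other macrophages, held 98302 UMIs and 1 UMI of the 29 genes, or 10.2 CPM (0.258 to 56.7). The 8 other macrophage barcodes had Glul at 206 CPM, Oat at 128 CPM and Got1 at 101 CPM, and 7 UMIs of the 29 genes. The 20 T cell barcodes had Ass1 at 103 CPM (16 UMIs) and Asl at 44.9 CPM. They also held 6 endothelial markers at 827 CPM in sum, beside 62.0 CPM in the early T cell gate. The part of these in the levels of Ass1 and Asl was not tested.

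Of 60 further genes of amino acid breakdown and gluconeogenesis 59 were among the features. In the early library 51 of 56 measured were at least 2-fold higher in CPM in the hepatocyte than the Kupffer gate, beside 26.4% of features, and 1, G6pc3, was lower. Between the Kupffer and other macrophage gates 24 of 48 were higher in CPM, beside 23.9% of features, and none lower. Per 100 Alb UMIs 5 of 48 were higher and 21 lower, beside 3.7% and 73.6% of features, with a median log2 ratio of -0.93. The 6 genes with the largest ratio to Alb of the Kupffer over the hepatocyte gate were G6pc3, Acadsb, Bckdha, Glud1, Slc25a44 and Asns. G6pc3, the glucose 6-phosphatase found in most tissues, was at 19.4 CPM in the Kupffer, 9.49 in the hepatocyte and 21.2 in the other macrophage gate, in contrast to G6pc. Glud1, glutamate dehydrogenase, was at 341, 584 and 136 CPM. Bckdha and Acadsb, of branched-chain amino acid breakdown, stood at 55.4 and 31.2 CPM in the Kupffer gate and 26.8 and 13.1 CPM in other macrophages. Slc25a44, a mitochondrial carrier of branched-chain amino acids, and Asns, asparagine synthetase, were at 16.5 and 5.77 CPM in the Kupffer gate and 10.6 and 4.99 CPM in other macrophages. In the macroscopic hepatocyte gate 16 of 57 of these genes were at least 2-fold lower than in the early one, beside 15.8% of features, and 1 was higher.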

How the data were processed

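Deposited files were raw UMI counts per gene and barcode, written by the authors with Cell Ranger 3.0.2 per the file headers. The genome build mm10 and Seurat 2.3.0, the latter with no stated role, are named in the submitters' processing notes. The gene annotation and the authors' barcode filter are not given in the sources used here. Gene overlaps came from GENCODE M21, matched by Ensembl identifier, and promoter sequences from RefSeq (GRCm38.p6).

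The members and lists were chosen with earlier results of these data known. Barcodes with at least 1000 UMIs were gated. Those in several gates (113 early, 5 macroscopic) were left out, and no doublet caller was run. UMIs were summed per gate with Python 3.11.15, numpy 2.4.6 and scipy 1.17.1. A CPM has an exact Poisson interval, a ratio an exact conditional interval and a share a Clopper-Pearson interval. A feature was measured with at least 20 UMIs in both sums together, and called at 2-fold. A count of 0 was set to a floor of 3 counts over the gate. Thinning drew 1000 UMIs per barcode (seed 1). The code was checked on simulated data. Named were all 37 members and, of the further pathway genes, the 6 with the largest Kupffer over hepatocyte ratio to Alb. Comparisons between the Kupffer and other macrophage gates were added after the data had been seen.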

Additional observations from a re-analysis of the deposited data

How the results depend on the processing

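The counts of the 37 members past 2-fold between gates and between stages were recomputed under other settings. These were overlapping barcodes kept, a minimum of 2000 UMIs, at most 25% mitochondrial UMIs, equal weight per barcode, thinning to 1000 UMIs, no minimum of UMIs and stricter gates. Where they apply, another reference list, scaling or Malat1 limit was also used. Not recomputed were the counts over barcodes within the Kupffer gate and those in the narrower background set. Those of the further pathway genes and of the enzyme lists were not recomputed either. All recomputed counts stayed within 1.5 times the reported one except under thinning. There 10 of 13 measured members were lower in the macroscopic hepatocyte gate, against 13.5% of features. Per 100 Alb UMIs 3 of 28 were higher in the Kupffer than the other macrophage gate, against 1.94% of features. Thinning leaves fewer UMIs to measure. Of the called CPM ratios of members, 1 reversed, that of Prodh between the stages, with a log2 ratio of 1.15 after thinning from under 20 UMIs. Others kept their direction but left the counting interval of the main value. These were 67 of 306 recomputed values for the hepatocyte over the Kupffer gate, 54 of 238 between the stages and 31 of 221 for the Kupffer over the other macrophage gate. With overlapping barcodes kept, Arg1 per 100 Alb UMIs reversed between the Kupffer and other macrophage gates, at a log2 ratio of -1.32. Median-of-ratios scaling moved the median log2 ratio of all features from 0.05 to -0.26 for the hepatocyte over the Kupffer gate, where the share of calls that were higher went from 51.1% to 40.4% and 31 members were still called. It moved it from -0.16 to 0.10 between the stages (41.4% to 63.7%, with 19 members lower) and from 0.36 to 0.09 for the Kupffer over the other macrophage gate (77.5% to 62.9%, with 26 members higher). Thinning moved the first of these shares to 66.8% and the second to 61.2%. No paired analysis was possible because each stage has 1 library. The 56 early hepatocyte barcodes, 72 T cell barcodes and 1 macroscopic Kupffer barcode limit what these counts can show.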

Other observations

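Further liver enzymes in the Kupffer gate were grouped by the place of their protein in the cell, in lists chosen after the data had been seen. Per 100 Alb UMIs in the early library, all 29 cytosolic enzymes (such as Gstm1 and Adh1) were at least 2-fold higher in the Kupffer than the hepatocyte gate, with a median log2 ratio of 3.01. Over all features 96.1% passed that fold, with a median of 6.45, so this count is near the background. Of 22 measured enzymes of the endoplasmic reticulum, such as cytochromes P450, 8 were higher and 6 lower, with a median of -0.19. Over all features 1.21% were lower. Cyp3a11 had 48 UMIs in the Kupffer gate and 1162 in the hepatocyte gate, and Ugt2b5 2 and 252. Ephx1 and Fmo5, of the same compartment, stood apart with 529 and 208 UMIs in the Kupffer gate. G6pc, the 1 member lower per Alb UMI, is also a protein of the endoplasmic reticulum, but members of that list went both ways. Among the 8 higher ones, Slc37a4, Fmo1, Ces3a and Cyp3a25 were 7.85-fold, 6.22-fold, 4.46-fold and 4.04-fold higher per Alb UMI. Whether the place of the protein has a part was not tested. The secreted liver proteins had 0 of 15 higher and 11 lower. The lists were not tested against each other.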
